A study of Mus musculus with 12 samples.

Results

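The enzymes and cofactor that write 5-methylcytosine into DNA and those that take it away were followed through mouse heart development. They are Dnmt1, Uhrf1, Dnmt3a and Dnmt3b on the writing side and Tet1, Tet2, Tet3 and Tdg on the erasing side. They were chosen by name, as 8 of the 48709 gene intervals in a table of read counts. Each name occurred on 1 interval, and each of the 8 genes had counts in all 12 libraries. All 8 passed the filter on low counts that left 28846 genes to test.

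The RNA was total RNA of the cardiogenic region, from which the heart is built, dissected from mouse embryos on embryonic day 8 (E8), E8.5, E9.5 or E14 and sequenced in 3 libraries per stage. The labels name no strain, genotype, sex or treatment, and do not say whether the libraries of a stage came from separate embryos or litters, so a p-value here refers to sample-to-sample variation that may be purely technical. The series concerns a long noncoding RNA and DNMT3B in the commitment of mesoderm, and the libraries described here ask how expression changes over the stages. Cardiac muscle markers were present throughout, with a summed level of 16401 to 26221 CPM (counts scaled to a common library total) over 10 genes.

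In mammals, methyl groups sit on the cytosine of CpG dinucleotides and act mainly to keep promoters, repeats and imprinted alleles silent. DNMT3A and DNMT3B place new methyl groups, while UHRF1 recognises the half-methylated DNA left by replication and brings in DNMT1 to restore the mark on the new strand. The TET enzymes oxidise 5-methylcytosine with oxygen and 2-oxoglutarate, and TDG cuts out the oxidised bases so that base excision repair can put back a plain cytosine. In the embryo a wave of new methylation accompanies implantation, and the enzymes are then retained or lost as tissues form.

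The members lie on separate stretches of the mouse genome (GRCm38), and each value below is the count over the whole gene interval. Dnmt1 (ENSMUSG00000004099.16) lies on chromosome 9 from 20907206 to 20959888, on the minus strand. Uhrf1 (ENSMUSG00000001228.14) lies on chromosome 17 from 56303321 to 56323486, on the plus strand. Dnmt3a (ENSMUSG00000020661.15) covers chromosome 12 from 3806007 to 3914443 and Dnmt3b (ENSMUSG00000027478.15) chromosome 2 from 153649450 to 153687730, both on the plus strand. Tet1 (ENSMUSG00000047146.17) covers chromosome 10 from 62804570 to 62899118, Tet2 (ENSMUSG00000040943.12) chromosome 3 from 133463679 to 133545139 and Tet3 (ENSMUSG00000034832.15) chromosome 6 from 83362373 to 83459084, all on the minus strand. Tdg (ENSMUSG00000034674.18) lies on chromosome 10 from 82629828 to 82650799, on the plus strand. No single gene that overlaps a member had total counts above 6.55% of the member's own, the highest being Glt8d2 at Tdg.

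The 250 bases upstream of 3 annotated starts are shown because their genes follow the 3 different courses described below: Dnmt3b fell after E8.5, Dnmt3a rose, and Uhrf1 fell late together with Dnmt1. They are RefSeq windows on GRCm38.p6, printed 5′ to 3′ on the strand of the gene: chr2:153649199-153649448 for Dnmt3b, chr12:3806730-3806979 for the first of 3 Dnmt3a starts and chr17:56304063-56304312 for the second of 2 Uhrf1 starts. Capitals mark GC boxes (GGGCGG, the core bound by Sp-family factors) and an E2F-type word, either strand, where 2 adjoining matches run together.
Dnmt3b: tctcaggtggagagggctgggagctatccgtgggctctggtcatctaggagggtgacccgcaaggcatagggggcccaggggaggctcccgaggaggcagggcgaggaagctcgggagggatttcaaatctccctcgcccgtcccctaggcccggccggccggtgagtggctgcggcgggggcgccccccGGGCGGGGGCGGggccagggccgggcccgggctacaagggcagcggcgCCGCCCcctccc
Dnmt3a: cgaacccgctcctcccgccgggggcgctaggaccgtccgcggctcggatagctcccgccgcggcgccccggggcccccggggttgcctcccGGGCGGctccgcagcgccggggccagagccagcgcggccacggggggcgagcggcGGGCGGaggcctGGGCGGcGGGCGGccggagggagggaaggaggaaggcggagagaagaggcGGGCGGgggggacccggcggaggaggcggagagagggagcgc
Uhrf1: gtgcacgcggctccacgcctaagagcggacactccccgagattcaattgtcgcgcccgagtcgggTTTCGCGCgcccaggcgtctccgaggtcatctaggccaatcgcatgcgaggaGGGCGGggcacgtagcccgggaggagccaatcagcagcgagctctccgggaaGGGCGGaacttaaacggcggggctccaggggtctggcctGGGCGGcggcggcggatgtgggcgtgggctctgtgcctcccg
The full windows reached 50 bases past the start, and all 8 members had at least 1, making 13 windows. They were searched on both strands for the E2F-type words TTTCGCGC, TTTGGCGC, TTTCCCGC and TTTGCCGC, forms of the site bound by the E2F factors that drive S-phase genes, and for GGGCGG. The E2F-type words were found in 2 of the 13 windows, the Uhrf1 window printed above and the first of the 3 Dnmt1 windows. Of all 32851 promoter windows 2.26% held one, and of the 2812 windows with at least 33 CpG 4.27% did. That cutoff was taken from the 2 matching windows, which held 33 CpG each, and not all member windows reached it. The first 2 Dnmt3a windows also overlap. The 13 windows are therefore not a like set for either share. GC boxes numbered 4 in the Dnmt3b window and 6 in the Dnmt3a window, and 35.7% of all windows held at least 1. The Dnmt3b window held 30 CpG and the Dnmt3a window 46, against a median of 7. These matches describe the letters and are not evidence of binding.

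The libraries held 56574386 to 122785175 counts each, and the lowest count of any member was the 330 of Dnmt3b in E14 replicate 1. Replicate 3 of E8.5 stood apart from the other 11 libraries, at 77.4 on principal component 4 of all tested genes (5.12% of variance) where the others lay between -32.5 and 14.9. On component 3 (6.39%) it lay at 31.2, within the E8 range of 15.9 to 36.1, with E8.5 replicates 1 and 2 at -43.1 and -63.1. In E8.5 replicate 3, the summed level of 11 markers of visceral endoderm and liver was 1728 CPM, against 161 and 59.7 CPM in E8.5 replicates 1 and 2 and 21.2 to 21.6 CPM at E8. That sum was 12.4, 83.1 and 145 CPM in E9.5 replicates 1, 2 and 3. The leading 3 of those markers in E8.5 replicate 3, Apob, Cubn and Afp, stood at 658, 470 and 245 CPM. Changes of the members that use E8.5 are therefore also given without E8.5 replicate 3. Of 15 other genes named below for the step from E8.5 to E9.5, 15 kept their direction and their side of the threshold without it.

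All 8 members varied over the 4 stages by edgeR's quasi-likelihood F-test, the test used throughout for single genes, with Benjamini-Hochberg adjustment over all 28846 genes tested. Of all genes 72.3% did so, and adjusted p ran from 5.22e-07 for Tdg to 0.0145 for Tet3. Without E8.5 replicate 1, or without E8.5 replicate 2, 7 of the 8 passed. Between E8 and E14, 3 members rose (Dnmt3a, Tet1 and Tet2), 4 fell (Dnmt1, Uhrf1, Dnmt3b and Tdg) and Tet3 did not pass, where 31.5% of all genes rose and 29.2% fell. The median member changed by -0.45 on the log2 scale, against 0.04 for all genes. In bulk tissue, fewer cells that express a gene and less RNA per cell cannot be told apart.

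**Figure D1:**
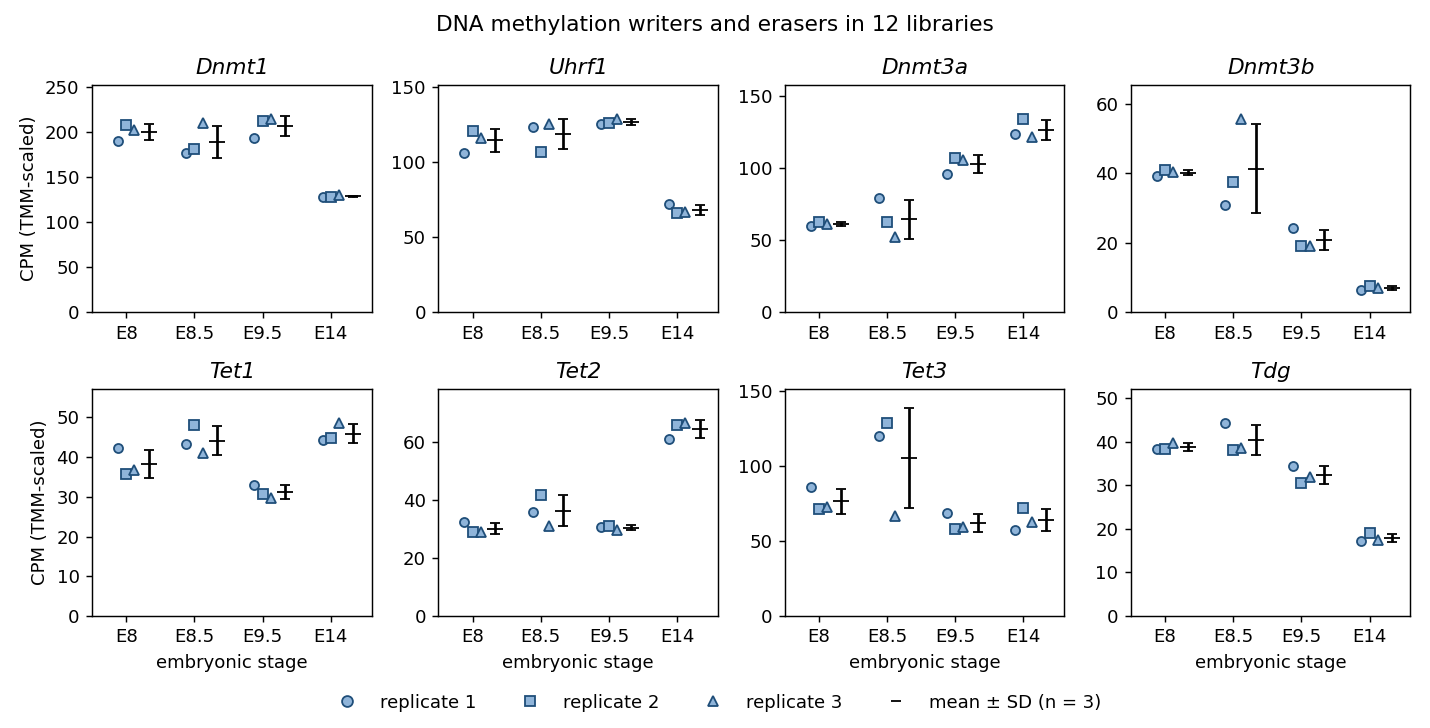
Level of each member in each of the 12 libraries (vertical axis, CPM after TMM scaling, from 0; horizontal axis, embryonic stage), with the mean and SD of 3 libraries beside the points. Dnmt3b falls from 40.2 CPM at E8 to 6.91 at E14 while Dnmt3a goes from 61.4 to 126 CPM, and the E8.5 libraries spread most for Dnmt3b and Tet3.

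The maintenance pair stayed level until E9.5 within the resolution of the test and was lower at E14. Dnmt1, the methyltransferase that copies the mark after replication, stood at 191, 208 and 203 CPM in the E8 libraries, 177, 182 and 210 at E8.5, 194, 213 and 215 at E9.5, and 128, 128 and 130 at E14. All 3 E14 libraries lay below all 9 earlier ones, and the earlier stages overlapped. Dnmt1 fell by 0.69 on the log2 scale from E9.5 to E14 (SE 0.08, adjusted p = 2.77e-05, edgeR), after changes of -0.08 (SE 0.08, adjusted p = 0.547) into E8.5 and 0.13 (SE 0.08, adjusted p = 0.245) into E9.5. Without E8.5 replicate 3, the change into E9.5 was 0.23 (SE 0.07) and passed, with an adjusted p of 0.0193, and the change into E8.5 was -0.20 (SE 0.07, adjusted p = 0.0586).

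Uhrf1, the reader of half-methylated CpG that recruits DNMT1, was likewise lowest at E14. Its level was 106, 121 and 116 CPM at E8, 123.2, 107 and 125 at E8.5, 125, 126 and 129 at E9.5, and 71.8, 65.7 and 66.7 at E14. The E14 libraries again lay below all 9 others. Uhrf1 fell by 0.90 from E9.5 to E14 (SE 0.08, adjusted p = 3.06e-06) and fell by 0.75 from E8 to E14 (SE 0.08, adjusted p = 7.40e-06), while the changes into E8.5 and E9.5 were 0.05 (SE 0.08) and 0.09 (SE 0.08) and neither passed. Without E8.5 replicate 3 they were -0.02 (SE 0.08) and 0.17 (SE 0.08, adjusted p = 0.132). Of the 28 pairs of members, Dnmt1 and Uhrf1 had the most similar course, with a root mean square difference of 0.12 in centred log2 CPM over the 12 libraries. Uhrf1 held 0.569 ± 0.0125 counts for each Dnmt1 count at E8 and 0.627 ± 0.0603 at E8.5 (SD, n = 3). At E9.5 and E14 it held 0.612 ± 0.0297 and 0.529 ± 0.0285. The E14 libraries, at 0.512 to 0.562, lay below those of E9.5, at 0.592 to 0.646, and overlapped those of E8.

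Genes of S phase and mitosis were lower at E14 as well. Of 20 such genes tested, 17 fell and 0 rose from E9.5 to E14, where 24.6% of all genes fell and 25.4% rose. Their summed level was 2485 to 2851 CPM at E9.5 and 1790 to 2015 CPM at E14. Expressed against that sum, Dnmt1 was between 7.97% and 8.40% at E8, between 7.54% and 7.79% at E9.5 and between 6.34% and 7.16% at E14, and the E14 libraries were the lowest 3 of the 12. Uhrf1 was between 4.43% and 4.87% of the sum at E8, between 4.50% and 5.04% at E9.5 and between 3.56% and 3.67% at E14. The part of proliferation in the falls of the maintenance pair was not tested.

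The de novo pair moved in opposite directions. Dnmt3b, the de novo enzyme that predominates in the early embryo, stood at 39.2, 40.8 and 40.5 CPM at E8, 30.8, 37.6 and 55.6 at E8.5, 24.2, 19.0 and 19.1 at E9.5, and 6.26, 7.48 and 6.995 at E14. E8 and E8.5 overlapped, whereas every E9.5 library lay below both and every E14 library below E9.5. Dnmt3b fell by 0.99 from E8.5 to E9.5 (SE 0.18, adjusted p = 0.00167), fell by 1.58 from E9.5 to E14 (SE 0.19, adjusted p = 2.87e-05) and fell by 2.53 from E8 to E14 (SE 0.19, adjusted p = 4.68e-07). The last of these was the largest change among the 8 members in the 5 comparisons made.

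The highest Dnmt3b level of all was that of E8.5 replicate 3, the library with the visceral endoderm markers. Without it, the change from E8 to E8.5 turned from 0.04 (SE 0.18, adjusted p = 0.899) to -0.27 (SE 0.12, adjusted p = 0.106), and neither passed. The change from E8.5 to E9.5 was then -0.69 (SE 0.12, adjusted p = 6.84e-04). A summed level of 8 markers of pluripotency and epiblast moved alongside Dnmt3b, but it was nearly all Lin28a and does not stand for the list. It lay between 225 and 248 CPM in the E8 libraries, at 169, 174 and 276 CPM in E8.5 replicates 1, 2 and 3, between 53.3 and 105 CPM in the E9.5 libraries and between 1.09 and 1.31 CPM in the E14 libraries. Among the other genes of the list, all far lower than Lin28a, Pou5f1, Sox2, Otx2 and Dppa4 fell from E8 to E14. Nanog rose by 1.46 (SE 0.31, adjusted p = 0.00135), where 31.5% of all genes rose and 29.2% fell. Fgf5 did not pass there and rose by 2.32 from E8.5 to E9.5 (SE 0.52, adjusted p = 0.00525). Utf1 was below the filter on low counts. Whether the marker sum bears on the Dnmt3b values was not tested.

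Dnmt3a, the de novo enzyme that most differentiating tissues keep, stood at 60.05, 62.8 and 61.3 CPM at E8, 79.1, 62.3 and 52.2 at E8.5, 95.6, 107 and 105 at E9.5, and 124, 134 and 122 at E14. All E9.5 libraries lay above all E8 and E8.5 libraries, and all E14 libraries above E9.5. Dnmt3a rose by 0.67 from E8.5 to E9.5 (SE 0.12, adjusted p = 0.00167) and by 1.04 from E8 to E14 (SE 0.12, adjusted p = 1.52e-05). The step from E9.5 to E14 was 0.30 (SE 0.12) with an adjusted p of 0.0582. That step passed without E8.5 replicate 1 (adjusted p = 0.0106) or replicate 3 (adjusted p = 0.0198). Within E8.5 the order of the 3 libraries was reversed between the pair: replicate 1 had the highest Dnmt3a and the lowest Dnmt3b, and replicate 3 the lowest Dnmt3a and the highest Dnmt3b.

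The count ratio of Dnmt3a to Dnmt3b, which does not depend on library size, was 1.53, 1.54 and 1.51 in the E8 libraries, 2.57, 1.66 and 0.939 at E8.5, 3.95, 5.64 and 5.51 at E9.5, and 19.8, 17.9 and 17.4 at E14. The E8 libraries were nearly equal, the E8.5 libraries lay on either side of them, and E9.5 and E14 overlapped no other stage. The stage means were 1.53 ± 0.0125, 1.72 ± 0.816, 5.03 ± 0.940 and 18.4 ± 1.24 (SD, n = 3 each). The ratio was 11.99-fold higher at E14 than at E8, a log2 difference of 3.58 (SE 0.06). An exact permutation test of the sum of squares between the 4 stages, which has no direction, gave p = 4.55e-04 over 369600 assignments of libraries, where the smallest possible value was 6.49e-05, the value reached without E8.5 replicate 3. Each pair of stages without overlap gave the smallest exact p that 3 libraries against 3 allow, 0.1, and E8.5 against E8 gave an exact p of 0.7.

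**Figure D2:**
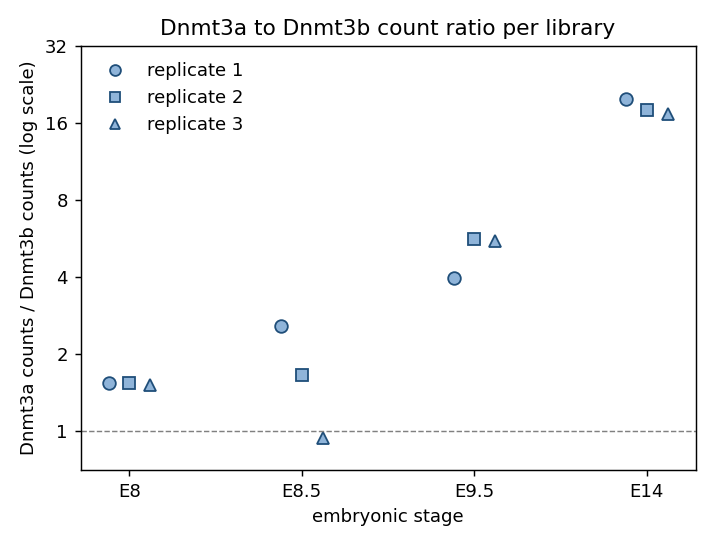
Dnmt3a counts divided by Dnmt3b counts in each library (vertical axis, log scale; horizontal axis, stage; dashed line, equal counts). The 3 E8 points sit between 1.51 and 1.54, the E8.5 points spread from 0.939 to 2.57, and the E14 points sit between 17.4 and 19.8.

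Counts grow with the length of a gene, so the balance of the pair was also taken per kilobase. Per kilobase of exon the ratio of Dnmt3a to Dnmt3b was 0.465 to 0.472 at E8 and 5.33 to 6.06 at E14. Per kilobase of gene span it was 0.535 to 0.543 and 6.14 to 6.97. Dnmt3b was thus the more abundant of the pair per length at E8 and Dnmt3a at E9.5 and E14, on both lengths. At E8.5 both lengths also gave ratios below 1 in all 3 libraries, from 0.288 to 0.788 per exon kilobase and from 0.331 to 0.906 per span kilobase.

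A pair of genes annotated on the opposite strand overlaps the de novo enzymes, and they were singled out after their values were seen. Dnmt3bos (chromosome 2, 153648690 to 153650286, minus strand) spans the whole Dnmt3b window printed above and the first 837 bases of Dnmt3b. Its raw counts were 109, 118 and 177 at E8, 105, 119 and 140 at E8.5, 27, 28 and 41 at E9.5, and 1, 21 and 6 at E14. Like Dnmt3b it was highest at the first 2 stages, with no overlap between them and the later 2. Dnmt3bos fell by 1.51 from E8.5 to E9.5 (SE 0.41, adjusted p = 0.0145) and fell by 3.28 from E8 to E14 (SE 0.47, adjusted p = 7.80e-05). Without E9.5 replicate 2 the former was -1.39 with an adjusted p of 0.0609, and without E8.5 replicate 3 it was -1.36 (SE 0.44, adjusted p = 0.0256). The change from E9.5 to E14 was -1.68 (SE 0.48, adjusted p = 0.0124), and -2.85 without E14 replicate 2.

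Dnmt3aos (chromosome 12, 3859293 to 3862244, minus strand) lies wholly inside Dnmt3a. Its raw counts were 13, 5 and 7 at E8, 18, 9 and 16 at E8.5, 28, 68 and 47 at E9.5, and 57, 127 and 101 at E14. Like Dnmt3a it was higher in all 6 later libraries than in all 6 earlier ones. Its raw counts at E9.5 and E14 overlapped, but its scaled levels did not, at 0.367 to 0.770 CPM and 1.08 to 1.37 CPM. Dnmt3aos rose by 2.13 from E8.5 to E9.5 (SE 0.38, adjusted p = 0.00155) and by 4.08 from E8 to E14 (SE 0.41, adjusted p = 3.93e-06). Without E8.5 replicate 3 the former was 2.25 (SE 0.44, adjusted p = 0.00170). The rise from E9.5 to E14, 1.17 (SE 0.35, adjusted p = 0.0143), did not pass without E9.5 replicate 1 (0.94, adjusted p = 0.0560) or E14 replicate 2 (1.07, adjusted p = 0.0515). Whether the counting used strand is not given in the sources used here, so reads of either gene and of its partner cannot be told apart. All counts of Dnmt3bos, inside or outside the overlap, came to 2.58% of those of Dnmt3b, and those of Dnmt3aos to 0.510% of those of Dnmt3a.

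**Figure D3:**
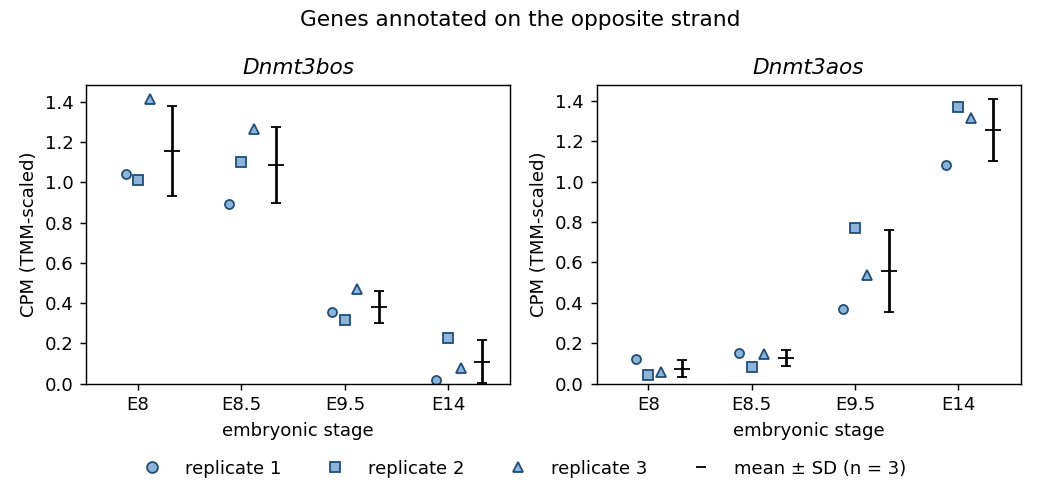
Level of Dnmt3bos and Dnmt3aos in each library (vertical axis, CPM after TMM scaling, from 0; horizontal axis, stage), with mean and SD of 3 libraries. Dnmt3bos runs from 1.16 CPM on average at E8 to 0.108 at E14, and Dnmt3aos from 0.0743 to 1.26.

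All 3 TET dioxygenases had a lower mean at E9.5 than at E8.5. From E9.5 to E14, Tet1 and Tet2 rose and Tet3 did not pass. Tet1, whose CXXC domain binds CpG-rich DNA, stood at 42.2, 35.9 and 36.8 CPM at E8, 43.4, 48.2 and 40.9 at E8.5, 33.04, 30.8 and 29.6 at E9.5, and 44.2, 44.9 and 48.7 at E14. The E9.5 libraries were the lowest 3 of the 12, and E8, E8.5 and E14 lay close together. Tet1 fell by 0.50 from E8.5 to E9.5 (SE 0.09, adjusted p = 0.00120) and rose by 0.56 from E9.5 to E14 (SE 0.09, adjusted p = 2.05e-04). The rise over the whole course was 0.26 (SE 0.09, adjusted p = 0.0196) and did not pass without E8 replicate 2 (adjusted p = 0.0907), E8 replicate 3 (0.0798), E14 replicate 2 (0.0540) or E14 replicate 3 (0.119). When the libraries were adjusted for a trend of counts on gene span, the fall into E9.5 was -0.26 (SE 0.06, adjusted p = 0.00447) and the rise over the course 0.15 (SE 0.06, adjusted p = 0.0343).

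Tet2, which lacks a CXXC domain of its own, stood at 32.4, 29.2 and 29.0 CPM at E8, 36.1, 41.8 and 31.2 at E8.5, 30.8, 31.1 and 29.7 at E9.5, and 61.1, 66.1 and 66.7 at E14. Every E14 library was above all 9 earlier ones. Tet2 rose by 1.08 from E9.5 to E14 (SE 0.10, adjusted p = 3.05e-06) and by 1.10 from E8 to E14 (SE 0.10, adjusted p = 1.47e-06). Its change from E8.5 to E9.5 was -0.25 (SE 0.10, adjusted p = 0.0607), and without E8.5 replicate 3 it was -0.32 (SE 0.08) and passed, with an adjusted p of 0.00554.

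Tet3, the TET enzyme of the oocyte and of many differentiated tissues, stood at 85.8, 71.0 and 72.2 CPM at E8, 120, 129 and 66.7 at E8.5, 68.6, 57.9 and 59.0 at E9.5, and 57.3, 72.0 and 62.4 at E14. The first 2 E8.5 libraries were the highest of the 12, whereas E8.5 replicate 3 lay among the libraries of the other stages. Tet3 fell by 0.77 from E8.5 to E9.5 (SE 0.20, adjusted p = 0.0125). That change was -0.60 without E8.5 replicate 2 and no longer passed (adjusted p = 0.0553), -0.98 without E8.5 replicate 3 (SE 0.11, adjusted p = 9.07e-05) and -0.50 with the adjustment for gene span (SE 0.16, adjusted p = 0.0305). From E8 to E14 the change was -0.26 (SE 0.20, adjusted p = 0.289), and without E8.5 replicate 3 it was -0.29 (SE 0.10) with an adjusted p of 0.0241.

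The make-up of the Tet counts differed between E8 and E14, given here as a description with no test. Tet3 made up 52.7% ± 0.707 of the counts of the 3 genes at E8 and 36.6% ± 2.41 at E14, and Tet2 went from 20.9% ± 0.621 to 37.1% ± 0.827 (SD, n = 3 each). The share of Tet1 was 26.4% ± 0.184 at E8 and 26.4% ± 1.59 at E14. The count ratio of Tet2 to Tet1 ran from 0.768 to 0.813 in the E8 libraries, from 0.761 to 0.868 in those of E8.5, from 0.932 to 1.01 in those of E9.5 and from 1.37 to 1.47 in those of E14, with overlap only between the first 2 stages. Per kilobase of exon the shares of Tet3 and Tet2 were 51.7% and 20.3% at E8 and 35.9% and 36.1% at E14. In E8.5 replicate 3 Tet3 held 48.0% of the Tet counts, against 60.2% and 58.8% in replicates 1 and 2.

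**Figure D4:**
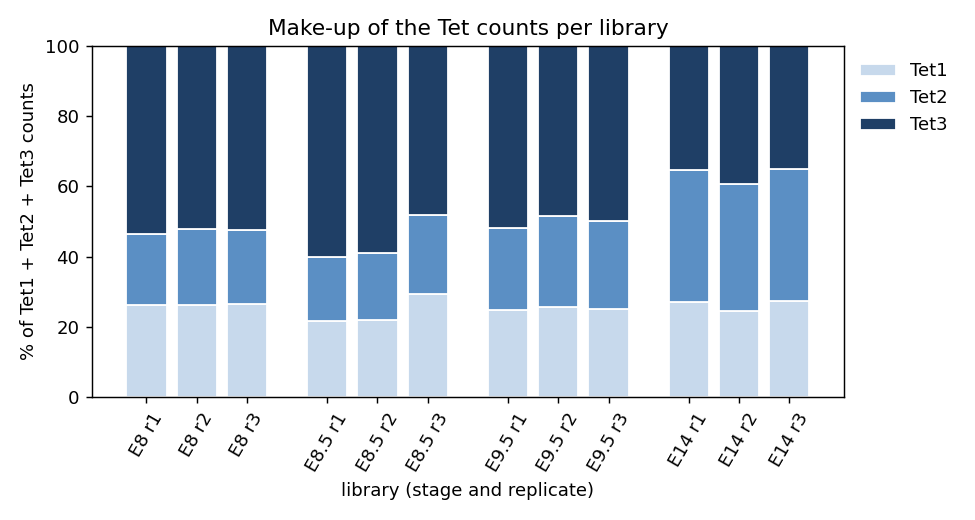
Share of Tet1, Tet2 and Tet3 in the summed counts of the 3 genes (vertical axis, percent; 1 bar per library, r1 to r3 being the replicates). The Tet2 band widens from 20.2% to 21.4% in the E8 libraries to 36.1% to 37.6% in the E14 libraries, and the Tet1 band stays between 21.8% and 29.5% in all 12.

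Tdg, the glycosylase that completes the erasure, stood at 38.2, 38.4 and 39.8 CPM at E8, 44.3, 38.1 and 38.6 at E8.5, 34.5, 30.5 and 31.9 at E9.5, and 17.3, 19.1 and 17.4 at E14. E8 and E8.5 overlapped, all E9.5 libraries lay below them and all E14 libraries lay below E9.5. Tdg fell by 0.32 from E8.5 to E9.5 (SE 0.08, adjusted p = 0.00798), fell by 0.85 from E9.5 to E14 (SE 0.08, adjusted p = 3.81e-06) and fell by 1.11 from E8 to E14 (SE 0.08, adjusted p = 2.37e-07). As a percent of the S phase sum it was 1.55% to 1.61% at E8 and 0.857% to 1.06% at E14.

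The members moved mainly after E8.5. From E8 to E8.5 no member passed the test, where 0.891% of all genes rose and 0.291% fell. At an unadjusted p under 0.05, 3 members, Tet1, Tet2 and Tet3, were higher at E8.5. In either direction, 8106 of the 28846 genes tested were under that threshold. DESeq2 called 0 members, where it called 17.6% of all genes in that step. Without E8.5 replicate 3, 2 members rose: Tet2 by 0.33 (SE 0.08, adjusted p = 0.00805) and Tet3 by 0.67 (SE 0.11, adjusted p = 0.00193). In that fit 14.2% of all genes rose and 15.7% fell. The other changes of that step were then 0.17 for Dnmt3a, 0.23 for Tet1, 0.05 for Tdg and -0.02 for Uhrf1, and none passed. From E8.5 to E9.5, 1 member rose (Dnmt3a) and 4 fell (Dnmt3b, Tet1, Tet3 and Tdg), where 18.4% of all genes rose and 18.5% fell. Without E8.5 replicate 3, 7 members were called in that step, with Dnmt3a at 0.57, Tet1 at -0.53, Tdg at -0.32 and, in addition to the 5, Dnmt1 and Tet2. In that fit 23.5% of all genes rose and 20.4% fell, 43.9% in all. From E9.5 to E14, 2 members rose (Tet1 and Tet2) and 4 fell (Dnmt1, Uhrf1, Dnmt3b and Tdg), where 25.4% rose and 24.6% fell. From E8 to E9.5, 1 member rose and 3 fell, where 13.6% of all genes rose and 11.3% fell. They were Dnmt3a with 0.74 (SE 0.12, adjusted p = 0.00112), Dnmt3b with -0.95 (SE 0.18, adjusted p = 0.00273), Tet1 with -0.30 (SE 0.09, adjusted p = 0.0258) and Tdg with -0.26 (SE 0.08, adjusted p = 0.0275). Tet1 and Tdg were both lost there without E8 replicate 1, E9.5 replicate 2 or E9.5 replicate 3, and Tdg also without E8 replicate 2 or 3, which left 2 or 3 members called. Member medians for the 3 successive steps were 0.06, -0.29 and -0.32, against 0.02, -0.03 and 0.01 for all genes.

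**Figure D5:**
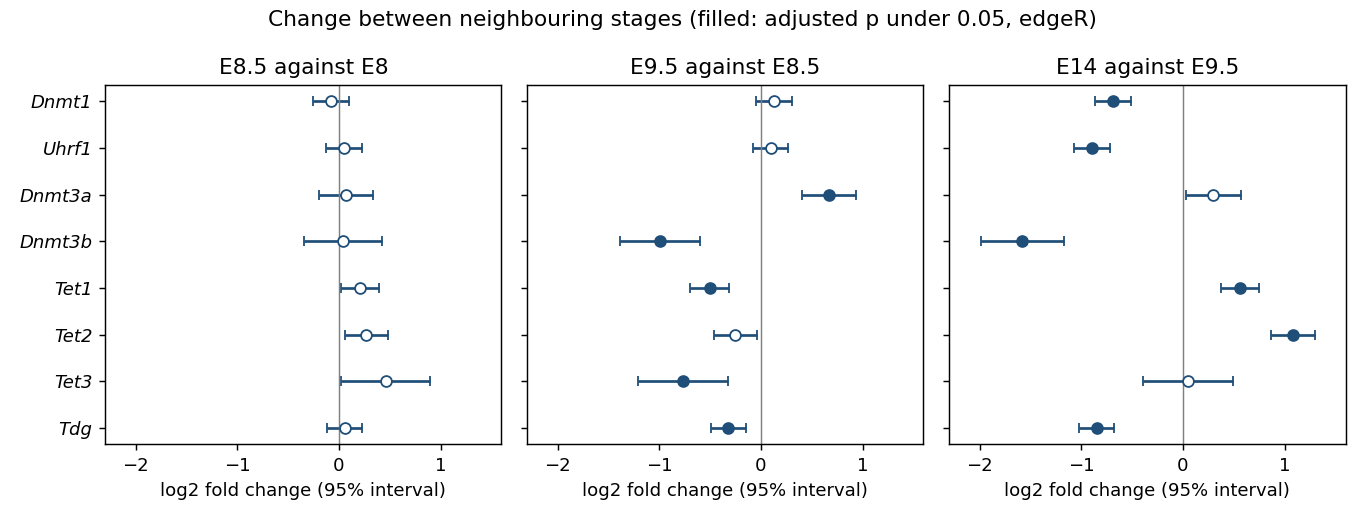
Log2 fold change of each member between neighbouring stages (horizontal axis; bars, 95% interval; filled points, adjusted p under 0.05 by edgeR). No point is filled in the first panel, 5 are filled in the second and 6 in the third, and Dnmt3b at -0.99 and -1.58 lies farthest to the left in the last 2.

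The members were ranked by level per length only. Dnmt1 and Uhrf1 were the top 2 members at every stage, per kilobase of exon and per kilobase of gene span alike. At E8 they stood at 27.2 ± 1.22 and 26.8 ± 1.78 CPM per exon kilobase (SD, n = 3), which did not differ beyond their spread, and on the gene span Uhrf1 was ahead, at 5.67 ± 0.377 against 3.81 ± 0.171. Next at E8 came Dnmt3b at 7.86 ± 0.162 and Tdg at 7.22 ± 0.161 CPM per exon kilobase, which were in the opposite order on the span. Tet3 at 4.57 ± 0.493, Dnmt3a at 3.69 ± 0.0819, Tet1 at 2.48 ± 0.222 and Tet2 at 1.79 ± 0.115 followed in that order on both lengths. At E14 Dnmt3a came next after them on both lengths, at 7.60 ± 0.401 CPM per exon kilobase, and Dnmt3b was last on both, at 1.35 ± 0.119. Tet2 and Tet3, at 3.83 ± 0.184 and 3.83 ± 0.448, did not differ beyond their spread.

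The partners of the writers and the repair genes downstream of the erasers held more genes that fell than rose over the whole course. Counts of these lists from E8 to E14 stand beside 31.5% of all genes that rose and 29.2% that fell, and those from E8.5 to E9.5 beside 18.4% and 18.5%. Of 18 partners and recruiters of the methyltransferases, all tested, 0 rose and 12 fell from E8 to E14, with a median of -0.46 where that of all genes was 0.04. Trim28, the corepressor through which KRAB zinc finger proteins direct methylation, fell by 1.07 (SE 0.11, adjusted p = 4.16e-06). Zfp57, the zinc finger protein that guards imprinted alleles, fell by 1.003 (SE 0.10), and Cdca7, a cofactor of the remodeller HELLS in keeping up methylation, fell by 0.93 (SE 0.09). Kdm2b, which binds unmethylated CpG, fell by 0.95 (SE 0.09) but overlaps Rnf34, whose counts were 0.867 of its own. Dnmt3l, the catalytically inactive cofactor of the de novo enzymes, was named after its values were seen: it stood at 0.0965 ± 0.0368 CPM at E8 and 0.0432 ± 0.0310 at E14 (SD, n = 3), and did not pass in any comparison.

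Of the partners, 1 rose and 7 fell from E8.5 to E9.5, where 18.4% of all genes rose and 18.5% fell. Without E8.5 replicate 3, 2 rose and 7 fell. In that fit 43.9% of all genes were called, against 37.0% with all libraries. Pcna, the replication clamp that binds DNMT1, rose by 0.57 (SE 0.13, adjusted p = 0.00582). Nsd1, the histone methyltransferase whose H3K36 mark is read by DNMT3A, fell by 0.49 (SE 0.08, adjusted p = 0.00101), and the fall was -0.21 with the adjustment for gene span. Ehmt1, an H3K9 methyltransferase, fell by 0.49 (SE 0.12), or -0.17 with that adjustment, and did not pass in a fit of the 2 stages alone (adjusted p = 0.0569).

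Of 17 eraser partners and base excision repair genes, 16 were tested, and from E8 to E14 2 rose and 9 fell with a median of -0.36, against 31.5% and 29.2% of all genes. Parp1, a sensor of DNA breaks, fell by 1.08 (SE 0.10, adjusted p = 2.07e-06) and the glycosylase Neil2 fell by 1.33 (SE 0.25, adjusted p = 5.65e-04). Apex1, the endonuclease that acts after TDG, fell by 1.10 (SE 0.10), and it overlaps Tmem55b, whose counts were 0.948 of its own. Dppa3, a germ cell protein that counters UHRF1, fell by 3.09 (SE 0.84) from 0.128 to 0.0170 CPM. Smug1, another uracil glycosylase, rose by 0.63 (SE 0.11, adjusted p = 3.39e-04) and Gadd45b, a stress-induced protein linked to demethylation, rose by 0.66 (SE 0.11, adjusted p = 2.40e-04). Already from E8.5 to E9.5, when 3 of the 16 rose and 3 fell, Smug1 rose by 0.49 (SE 0.11), Gadd45g fell by 0.61 (SE 0.11) and Cxxc4, which binds TET2, fell by 0.73 (SE 0.08). The Smug1 rise was 0.31 with the adjustment for gene span, and Cxxc4 overlaps an antisense gene with 0.573 of its counts. Gadd45a rose by 1.16 (SE 0.27) and overlaps a transcript with 1.84 counts for each of its own.

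Of 10 genes from the families that hold the readers of methylated CpG, all tested, 6 rose and 1 fell from E8 to E14. Their median was 0.42, where 31.5% of all genes rose and 29.2% fell. Membership of these families does not mean that each of the 10 binds methylated CpG. Zbtb38 and Zbtb4, zinc finger proteins that bind methylated DNA, rose by 1.57 (SE 0.08, adjusted p = 1.52e-08) and 1.49 (SE 0.12, adjusted p = 4.98e-07). Mbd2, a subunit of the NuRD corepressor complex, rose by 0.67 (SE 0.11). The single gene of the 10 that fell was Mbd4, which is also a glycosylase, by 0.74 (SE 0.09), and an antisense gene overlapping it held 6.85 counts for each of its own. From E8.5 to E9.5, 2 of the 10 rose and 2 fell, where 18.4% of all genes rose and 18.5% fell in the full set of libraries. Without E8.5 replicate 3, 3 rose and 5 fell, and 43.9% of all genes were called, against 37.0% with it. The fall of Mbd5, -0.46 (SE 0.10), was -0.0041 with the adjustment for gene span. Zbtb38 rose by 0.28 (SE 0.07) in that step, with calls lost without E9.5 replicate 2 (adjusted p = 0.0534) or replicate 3 (adjusted p = 0.0555).

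Genes of methyl donor supply and of 2-oxoglutarate metabolism moved both ways. Of 16 such genes tested, 5 rose and 8 fell from E8 to E14, with a median of -0.22, beside 31.5% and 29.2% of all genes. Ahcy, which clears the methyltransferase inhibitor S-adenosylhomocysteine, fell by 1.28 (SE 0.14, adjusted p = 6.48e-06), and the folate enzymes Shmt1 and Mthfd1 fell by 0.96 (SE 0.10) and 0.94 (SE 0.06). Idh2, the mitochondrial isocitrate dehydrogenase, rose by 2.18 (SE 0.11, adjusted p = 1.52e-08), from 174 ± 7.53 to 791 ± 46.0 CPM (SD, n = 3). Idh3a, a subunit of the NAD-dependent enzyme of the citric acid cycle, rose by 1.14 (SE 0.13, adjusted p = 1.17e-05), and D2hgdh, which removes the TET inhibitor D-2-hydroxyglutarate, rose by 0.61 (SE 0.09). Mat2b, a regulatory subunit of S-adenosylmethionine synthesis, rose by 0.30 (SE 0.09), and without E14 replicate 1 the change was 0.21 with an adjusted p of 0.105. Gnmt fell by 1.92 (SE 0.27) but lies under a noncoding gene with 671 counts for each of its own. In the step into E9.5 from E8.5, 6 rose and 1 fell (18.4% and 18.5% of all genes), among them Idh3a by 0.71 (SE 0.13, adjusted p = 0.00162). Bhmt, which remethylates homocysteine from betaine, rose by 1.56 (SE 0.43), a call lost without E8.5 replicate 2 (adjusted p = 0.0550) or E9.5 replicate 3 (adjusted p = 0.0802), and Mtr, methionine synthase, fell by 0.32 (SE 0.08), or -0.13 with the adjustment for gene span, which did not pass.

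Germline genes whose promoters are kept silent by methylation in somatic tissue had low levels, and 12 of 15 were tested. From E8 to E14, 5 rose and 2 fell, where 31.5% of all genes rose and 29.2% fell. The summed level of the list lay between 10.7 and 12.3 CPM at E8 and between 19.6 and 23.6 CPM at E14. Sycp3 alone held 3.44 to 4.30 CPM of it at E8 and 9.57 to 13.5 CPM at E14, and without Sycp3 the sum was 7.24 to 8.03 CPM at E8 and 9.14 to 10.2 CPM at E14. Brdt, a testis bromodomain protein, rose by 2.06 (SE 0.24, adjusted p = 1.35e-05) to 2.08 ± 0.372 CPM (SD, n = 3), and Tex11 and Sycp1, meiotic proteins, rose by 1.35 (SE 0.22) and 0.93 (SE 0.24). Sycp3, another meiotic protein, rose by 1.49 (SE 0.16) and overlaps Chpt1, which held 3.72 counts for each of its own. Ddx4, a germ cell RNA helicase, fell by 1.42 (SE 0.18), and Tdrd1, a partner in the piRNA pathway, fell by 1.05 (SE 0.15). In the step into E9.5 from E8.5, 2 of the list rose and 2 fell, where 18.4% of all genes rose and 18.5% fell. Without E8.5 replicate 3, 2 rose and 4 fell of 13 tested, and 43.9% of all genes were called, against 37.0% with it. Sycp3 rose by 0.63 (SE 0.16), Stk31, a germ cell kinase homologue, rose by 0.69 (SE 0.25, adjusted p = 0.0446) and Ddx4 fell by 0.59 (SE 0.17, adjusted p = 0.0188). The Stk31 call was lost without any 1 of 9 libraries and the Ddx4 call without E8.5 replicate 2, E9.5 replicate 1 or E9.5 replicate 3.

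Marker sums of other cell types differed over the same stages. The counts of markers that rose or fell from E8 to E14 stand beside 31.5% of all genes that rose and 29.2% that fell. The summed level of 10 markers of fibroblasts and epicardium was 126 to 135 CPM at E8 and 2321 to 2388 at E14, and all 10 rose. That of 10 erythroid markers was 560 to 597 CPM at E8 and 20131 to 66412 at E14, with 7 rising and 2 falling. That of 8 markers of endothelium and endocardium was 538 to 544 CPM at E8 and 854 to 890 at E14, with 7 rising. That of 8 macrophage and leukocyte markers was 191 to 207 CPM and 243 to 263 CPM, again with 7 rising, and most of it was Cx3cr1, which overlaps Xirp1. The part of these marker changes in the members' changes was not tested.

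For each member the 3 protein-coding genes of nearest course were taken from 8876 compared, by the root mean square difference of centred log2 CPM over the 12 libraries. Dnmt1 was nearest to U2af1 (0.041), Noc3l and Lsg1. Uhrf1 was nearest to Amd1 (0.054), Nup85 and Aaas. Dnmt3a had as its nearest gene Idh3a (0.070), the subunit named above, then Hspa12b and Wsb2. Dnmt3b stood farthest from any other gene, with Fgfr3 at 0.138, Kif5c at 0.181 and Dcaf12l1 at 0.190. Tet1 was nearest to Col4a3bp (0.045), Tet2 to Sh3kbp1 (0.058), Tet3 to Hpcal1 (0.071) and Tdg to Fasn (0.066). These are descriptions over 12 libraries that share stage, depth and tissue.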

How the data were processed

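Values are raw read counts for each gene interval in each of 12 libraries, as whole numbers that were deposited without normalization by the authors, per the file headers. The submitters' processing notes name STAR 2.5.0 and Cufflinks 2.2.1 and the builds GRCm38, mm10 and hg38, with no role for each; the sources used here do not name the counting tool, strand setting or annotation. Counts may include intronic reads. Intervals were matched to GENCODE M21 for types and lengths. Those of Dnmt1 and Tet1 matched by name and overlap, not by identical coordinates. Their identifiers and exon lengths are those of the M21 gene of that name. Small structural RNAs, with the intervals inside them, took 15.8% to 23.3% of a library's counts.

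Counts were filtered (filterByExpr), scaled by TMM and fitted with edgeR 4.0.16 (quasi-likelihood, robust) in R 4.3.3 on all 12 libraries with 1 mean per stage. A gene was called at an adjusted p under 0.05 (Benjamini-Hochberg over 28846 genes). The fit was tested on simulated data. CPM are TMM-scaled. The ratio was tested by exact permutation (Python 3.11). Libraries of 1 stage varied beyond counting error (chi-square of 8.41 to 201 per gene on average). Alternatives were RLE (DESeq2-style) and upper-quartile factors, no filter, a replicate block, small RNAs left out, adjustment for gene span, fits of 2 stages, DESeq2 1.42.0 and each library left out.

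The members and gene lists were chosen with earlier results of these data known. All 8 members are named; of each other list, the called genes whose libraries of both stages did not overlap, by size, up to 4 each way from E8 to E14 and 2 each way for the first 2 steps. A reader gene that this rule names is not reported here.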

Additional observations from a re-analysis of the deposited data

How the results depend on the processing

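Of the 22 member changes called, 17 kept their call and direction under all 20 alternatives of their comparison; the other 5 were Tet3 and Tdg into E9.5 from E8.5, Tet1 and Tdg from E8 to E9.5, and Tet1 from E8 to E14. Members called from E8.5 to E9.5 numbered 3 in place of 5 in a fit of those 2 stages alone, where Tet3 (adjusted p = 0.0589) and Tdg (0.0697) were lost. That fit called 22.5% of all genes, against 37.0% in the main fit. With 1 library left out in turn, the numbers called were 0 to 2 from E8 to E8.5, 2 to 5 from E8 to E9.5, 4 to 7 from E8.5 to E9.5, 6 to 7 from E9.5 to E14, 6 to 8 from E8 to E14 and 7 to 8 over the 4 stages together. For the 5 comparisons in that order, the share of all genes called ran from 0% to 29.9%, 15.5% to 31.7%, 23.6% to 43.9%, 41.7% to 54.9% and 52.6% to 64.6%. The ratio's log2 difference between E8 and E14 ran from 3.53 to 3.62, with exact p between 6.49e-05 and 0.00110, and was 3.42 with the span adjustment. Dnmt3a from E9.5 to E14 also passed with upper-quartile factors (adjusted p = 0.0484) and in the fit of 2 stages (0.00816). Tet3 passed as a fall from E8 to E9.5 and from E8 to E14 in fits of 2 stages (0.0342 and 0.0296) and without E8.5 replicate 3 (0.0370 and 0.0241).

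Only changes that had not passed turned direction. With the span adjustment Dnmt3a from E8 to E8.5 was -0.16, Tet3 from E9.5 to E14 was -0.12 and Dnmt3bos from E8 to E8.5 was 0.058. With a library left out, values from E8 to E8.5 ran from -0.10 to 0.17 for Dnmt3a, -0.27 to 0.21 for Dnmt3b, -0.020 to 0.095 for Tdg, -0.024 to 0.12 for Uhrf1 (with -0.00050 without E8 replicate 1), and -0.25 to 0.079 for Dnmt3bos (with 0.032 without E8.5 replicate 1). Tet3 from E9.5 to E14 ran from -0.077 to 0.13 (with -0.00077 without E9.5 replicate 2), and Tet2 from E8 to E9.5 from -0.013 to 0.069 (with -0.0092 without E8 replicate 2). The cause was not tested.

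Of 18 pairs of same-numbered libraries, 4 had deviations correlated over 0.1, with a range of -0.287 to 0.289. Pairs with different numbers ran from -0.345 to 0.426. With so few libraries per stage, these correlations cannot decide whether a number marks a shared litter or day, which the labels do not state. The main fit therefore did not pair them. With the replicate block, members called numbered 0, 5, 6, 4 and 7 in the 5 comparisons in the order E8 to E8.5, E8.5 to E9.5, E9.5 to E14, E8 to E9.5 and E8 to E14, no member's call changed, and the ratio kept a log2 difference of 3.58 (exact permutation p = 0.00521). The share of all genes called with the block was 0.0104%, 34.2%, 48.4%, 22.6% and 59.3% in the same order.

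The number of all genes called depends most on the settings from E8 to E8.5: 341 as reported, 3 with the replicate block, 9 in a fit of 2 stages, 4256 with DESeq2, and 0 to 8865 with 1 library left out. The other comparisons ranged with 1 library left out from 7044 to 13015 (E8.5 to E9.5, 10659 as reported), 12346 to 16285 (E9.5 to E14), 4641 to 9409 (E8 to E9.5) and 15649 to 19174 (E8 to E14). With 28846 genes simulated for E8.5 to E9.5, the fit found 84% of genes raised and 74% of genes lowered by 1 on the log2 scale, but 14% and 20% of those changed by 0.5. The changed genes were drawn from all those over 1 CPM on average, so these rates are not those of genes at the levels of the members. In the data, Tet1 at -0.50 and Tdg at -0.32 were called in that step. Other small member changes may still be missed at this depth and n.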
